A study of Mus musculus with 6 samples.

Results

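The hematopoietic cytokine receptors described here are 9 genes, Csf3r, Csf2ra, Csf2rb, Csf2rb2, Il3ra, Il6ra, Il6st, Il7r and Il4ra, which encode surface chains through which blood cells sense colony-stimulating factors and interleukins. They were chosen by name, not by their values, out of the 24965 genes of the expression table, and all 9 were found by their Ensembl identifiers and passed the filter on low values. Expression was measured by RNA-seq as FPKM, fragment counts scaled to gene length and library depth, in 6 libraries of donor cells recovered from recipient bone marrow 6 h after bone marrow transplantation (BMT). The 3 WT libraries came from recipients of wild-type marrow, and the 3 Hemgn-/- libraries from recipients of marrow that lacked Hemgn, a gene of hematopoietic cells, through a whole-body disruption made with zinc finger nucleases on the C57BL/6 (CD45.2) background. The recipients of both groups carried CD45.1 and had been irradiated with a split dose of 9 Gy, and the study used mice of 8 to 10 weeks of age. The labels describe the sorted donor cells as CD45.2+Lin-Sca-1+, without c-Kit, and the study calls them HSPCs, hematopoietic stem and progenitor cells. The comparison asks how donor cells without Hemgn differ from WT donor cells shortly after transplantation.

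Most of these receptors belong to the type I cytokine receptor family. They have no kinase of their own: ligand binding brings chains together, and the Janus kinases bound to their tails phosphorylate STAT transcription factors, which move to the nucleus and switch on targets such as Socs3 and Pim1. The G-CSF receptor Csf3r works as a pair of identical chains and drives neutrophil production. The receptors for GM-CSF and IL-3 each join a private alpha chain, Csf2ra or Il3ra, to the common beta chain Csf2rb, and mice carry a second beta chain, Csf2rb2, that serves IL-3 alone. Il6ra binds IL-6 and signals through Il6st (gp130), the chain shared by the IL-6 family. Il7r, needed for lymphocyte development, and Il4ra, which answers IL-4 and IL-13, both pair with the common gamma chain Il2rg, and Il4ra also pairs with Il13ra1.

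Recovered totals were 23668015 to 27716575 fragments in the WT libraries and 26175076 to 28897361 fragments in the Hemgn-/- libraries. Hemgn itself stood at 5.637, 2.957 and 4.684 FPKM for WT and 0.7547, 0.9129 and 1.599 FPKM for Hemgn-/- donor cells, a log2 difference of -1.37 (adjusted p = 0.0114), and the groups did not overlap. Ly6a, which encodes Sca-1 and is the marker of the labelled sort, lay between 8.27 and 17.3 FPKM over the 6 libraries. Kit, which belongs to the study's HSPC gate but not to the labels, lay between 5.50 and 7.24 FPKM, and the progenitor marker Cd34 between 7.23 and 11.9 FPKM. The 10 HSPC markers summed to 35.9 to 41.8 FPKM in WT and 43.2 to 51.7 FPKM in Hemgn-/- libraries, and 1 of the 9 tested, Cd34, was higher in Hemgn-/- libraries at an adjusted p under 0.05. The 11 neutrophil markers summed to 77100 to 82800 FPKM in WT and 51200 to 56900 FPKM in Hemgn-/- libraries, with 3 of 11 lower (Camp, Ltf, Ngp) and 1 higher (Cxcr2). Ngp was the largest part of that sum (44900 FPKM in WT and 27100 FPKM in Hemgn-/- libraries on average), and 4 of the 11 markers had log2 differences above 0. The 6 granulocyte precursor markers summed to 689 to 737 and 484 to 531 FPKM (3 of 6 lower), and the 9 monocyte or macrophage markers to 23200 to 25900 and 16700 to 20900 FPKM (3 of 9 higher, 1 lower). Most of that last sum was Lyz2, which neutrophils also express (24100 FPKM in WT and 18700 FPKM in Hemgn-/- libraries on average), whereas 6 of the 9 markers, Csf1r, Adgre1 and Ccr2 among them, had log2 differences above 0 and the list's median was 0.07. Lymphoid sums were higher in Hemgn-/- libraries, at 1190 to 1250 against 1420 to 1590 FPKM for 8 B cell markers (4 of 8 higher) and 118 to 129 against 133 to 167 FPKM for 9 T or NK cell markers (2 of 9 higher). The 7 erythroid markers summed to 455 to 540 FPKM in WT and 31.7 to 50.9 FPKM in Hemgn-/- libraries (3 of 7 lower), the 6 eosinophil, basophil or mast cell markers to 425 to 513 and 268 to 276 FPKM (2 of 6 lower), the 7 plasmacytoid dendritic cell markers to 147 to 176 and 164 to 199 FPKM (2 of 7 higher), and the 5 endothelial markers to 16.1 to 17.2 and 17.3 to 20.8 FPKM, where limma called 0 of 4 tested (1 higher and 1 lower at an unadjusted p under 0.05, and 1 lower with voom). The endothelial sum was higher in Hemgn-/- libraries through Pecam1 (10.1 FPKM in WT and 13.8 FPKM in Hemgn-/- libraries on average). It was the 1 of the 4 tested with a log2 difference above 0, and the list's median was -0.135. None of the markers was listed at 0 in all 6 libraries. In both groups the summed neutrophil, granulocyte precursor, monocyte or macrophage, B cell, T or NK cell, plasmacytoid dendritic cell and eosinophil, basophil or mast cell markers thus exceeded the summed HSPC markers, while the erythroid sum did so in WT libraries and overlapped it in Hemgn-/- libraries, and the endothelial sum lay below it. Few genes carried some of these sums. Bst2 and Ly6d, named for their share, made most of the plasmacytoid dendritic cell sum. They averaged 67.8 and 81.7 FPKM in WT and 79.0 and 84.2 FPKM in Hemgn-/- libraries. Nkg7, named likewise, was the largest part of the T or NK cell sum (64.8 FPKM in WT and 63.5 FPKM in Hemgn-/- libraries on average). The sums therefore do not give shares of cells. The part of cell composition in the receptor values was not tested.

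The beta chain genes are neighbours on mouse chromosome 15 (build GRCm38), on opposite strands with 20030 bases between them: Csf2rb2 (ENSMUSG00000071714) at chr15:78282507-78305721 on the minus strand and Csf2rb (ENSMUSG00000071713) at chr15:78325752-78353847 on the plus strand. Their transcripts share identical stretches, so short reads cannot always be assigned to 1 of them. Of all windows of 50 bases in the exons of Csf2rb2, 18.4% occurred unchanged in Csf2rb, and 12.3% of those of Csf2rb in Csf2rb2. At windows of 150 bases, the length of 1 read, the shares were 3.34% and 2.3%. The longest identical run, 242 coding bases, is shown because it marks where the counts of the pair may be exchanged or lost. It lies in the last exon of each gene, at chr15:78284630-78284871 (minus strand, exon 14 of 14 of transcript Csf2rb2-201) and at chr15:78348577-78348818 (plus strand, exon 15 of 15 of Csf2rb-206), and reads in GENCODE M21, 5′ to 3′:
Csf2rb2 and Csf2rb: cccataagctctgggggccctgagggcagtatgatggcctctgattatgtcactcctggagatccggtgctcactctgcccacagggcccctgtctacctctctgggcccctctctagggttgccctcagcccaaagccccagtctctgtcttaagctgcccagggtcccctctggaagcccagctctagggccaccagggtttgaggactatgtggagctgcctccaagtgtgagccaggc

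The 250 bases before the RefSeq start site (GRCm38.p6) were read for 8 of the 9 receptor genes and searched on both strands for 5 short motifs. The search was made since 4 of the 9 genes rose together (Csf3r, Csf2rb, Il3ra and Il4ra). Csf2rb, 1 of these 4, is the gene without a window here. The letters searched were TTCNNNGAA (GAS, bound by STAT dimers, its own reverse complement), GAAA repeated after any 2 bases (ISRE core), GAGGAAG (a core bound by PU.1, a myeloid and B cell factor), TTGCNNAAT (a core bound by C/EBP factors) and AGATAA (a core bound by GATA factors). GAS letters stood in 2 of 8 receptor windows and in 7.02% of all 32851 windows of this length, PU.1 letters in 3 of 8 and 10.6%, C/EBP letters in 1 of 8 and 2.11%, GATA letters in 1 of 8 and 9.99%, and ISRE letters in 0 of 8 and 2.98%. The matches are given below with the motif in capitals and up to 10 flanking bases, to show where these windows hold the letters of a STAT, PU.1 or C/EBP site. They lie 86 to 80 (Csf3r), 14 to 8 (Csf2ra), 168 to 162 and 15 to 7 (Csf2rb2), 134 to 126 (Il3ra) and 142 to 134 (Il7r) bases before the RefSeq start. In Csf2ra a further copy of the PU.1 letters overlaps the end of the one shown. The sites of Csf3r, Il3ra and Il7r fall inside the gene spans of GENCODE M21, which starts these genes further upstream, and the Csf2ra site straddles the M21 start of that gene. The GATA letters stood in the window of Il6ra, and the windows of Il4ra and Il6st held no match. The 2 genes with GAS letters did not pass the adjusted threshold and differed in direction. Csf2rb2 had a log2 difference of 0.59 (limma, adjusted p = 0.0906) and Il7r of -0.40 (limma, adjusted p = 0.0706). Whether any of these letters bear on the differences was not tested. A match is only a match of letters, and binding was not measured.
Csf3r, PU.1 letters, chr4:126024563-126024589, plus strand: tccttcctgaGAGGAAGgggctgtcta
Csf2ra, PU.1 letters, chr19:61228419-61228442, minus strand: acctgcagatGAGGAAGaggaagc
Csf2rb2, PU.1 letters on the other strand, chr15:78305873-78305899, minus strand: tctgtgtctgCTTCCTCcagagaagtc
Csf2rb2, GAS letters, chr15:78305722-78305746, minus strand: gtgtccacaaTTCTGAGAAgcaagc
Il3ra, C/EBP letters, chr14:14346351-14346379, plus strand: tctcaggaagTTGCTCAATctcgggacca
Il7r, GAS letters, chr15:9530000-9530028, minus strand: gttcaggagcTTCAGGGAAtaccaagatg

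Between genotypes, 4 of the 9 receptors were higher in Hemgn-/- libraries, namely Csf3r, Csf2rb, Il3ra and Il4ra, and 0 were lower, by limma on log2(FPKM + 1) at an adjusted p under 0.05. These 4 are 44.4% of the receptors, where 4.37% of the 13739 genes tested were higher and 2.09% lower by the same rule. At an unadjusted p under 0.05, 6 of the 9 differed, of which 5 were higher, and voom on recovered fragments called 5 higher and 1 lower. Over all 13723 genes entered, voom called 734 higher and 331 lower. The share of all genes past an unadjusted p alone was not counted, here or for the other gene lists. The thresholds of the study's methods, an unadjusted p under 0.05 with at least a 1.5-fold change, were also applied to this limma fit. By them 2 receptors were higher (Csf2rb2, only just past 1.5-fold, and Il3ra, beside 4.10% of all genes) and 0 lower (2.74% of all genes). These are not the study's own calls: at the same thresholds the study reported more genes lower than higher, the opposite balance. The 3 Hemgn-/- values lay above all 3 WT values in 5 receptors (19.2% of all genes) and below them in 1, Il7r (8.18% of all genes), and overlapped in the other 3. The median log2 difference was 0.37 over the receptors and 0.09 over all genes tested. The scaling between libraries bore on these counts: over all genes, 600 were higher and 287 lower as deposited, 341 and 386 after median-ratio scaling, 368 and 346 after quantile normalization, and 1062 and 238 after rescaling to the same FPKM total, with a median of all genes between 0.01 and 0.16. Median-ratio scaling left 1 receptor higher (Csf2rb) and 1 lower (Il7r). The limma p-values weigh the group difference against the spread between the 3 libraries of each group, moderated by a trend over all genes tested. The study calls these libraries biological replicates. In bulk libraries fewer cells of a type and less RNA per cell cannot be told apart.

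**Figure D1:**
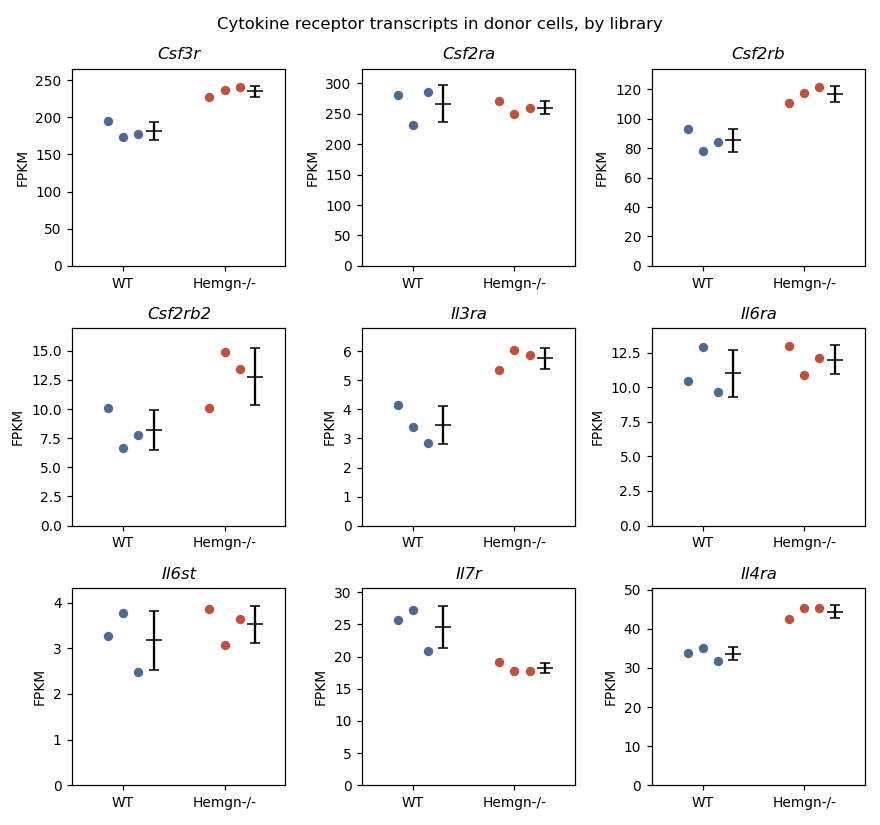
FPKM (linear axis from 0) of each of the 9 receptor genes in the 3 WT (blue) and 3 Hemgn-/- (red) libraries, replicates 1 to 3 from left to right, with the mean and SD of each group in black. The Hemgn-/- points lie above the WT points for Csf3r, Csf2rb, Il3ra and Il4ra, and below them for Il7r.

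Csf3r, the G-CSF receptor (ENSMUSG00000028859, chr4:126024550-126044440, plus strand), was measured at 194.9, 172.8 and 176.8 FPKM in WT libraries and at 226.8, 237.0 and 240.8 FPKM in Hemgn-/- libraries. Every Hemgn-/- value was above every WT value. The mean rose from 181 ± 11.8 to 235 ± 7.23 FPKM (SD, n = 3 each), a log2 difference of 0.37 with an SE of 0.07 and a 95% interval of 0.22 to 0.53 (adjusted p = 0.0152). Neutrophils express this receptor strongly, and the summed neutrophil markers, none of them at 0 throughout, were lower in Hemgn-/- libraries (51200 to 56900 FPKM) than in WT libraries (77100 to 82800 FPKM), with 3 of 11 lower and 1 higher. The largest part of that sum was Ngp (44900 FPKM in WT and 27100 FPKM in Hemgn-/- libraries on average). Of the 11 markers, 4 had log2 differences above 0, Cxcr2 among them, and the median was -0.33. The part of neutrophils in the Csf3r difference was not tested. The adjusted p was over 0.05 without WT replicate 3 (0.0578), Hemgn-/- replicate 2 (0.0510) or Hemgn-/- replicate 3 (0.0819), and under median-ratio scaling (0.0534) and eBayes without a trend (0.110).

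Of the GM-CSF receptor chains, the common beta chain rose and the alpha chain did not pass the test. Csf2ra, its alpha chain (ENSMUSG00000059326, chr19:61223957-61228429, minus strand), was at 281.2, 231.3 and 286.2 FPKM in WT libraries and at 270.7, 249.7 and 258.8 FPKM in Hemgn-/- libraries. The groups overlapped, with WT replicate 2 the lowest of all 6, and the means of 266 ± 30.4 and 260 ± 10.5 FPKM gave a log2 difference of -0.03 with a 95% interval of -0.23 to 0.17 (adjusted p = 0.881). Csf2rb, the common beta chain, was at 93.3, 78.29 and 83.97 FPKM in WT and at 110.7, 117.5 and 121.3 FPKM in Hemgn-/- libraries. Its groups did not overlap, and the mean rose from 85.2 ± 7.58 to 116 ± 5.41 FPKM, a log2 difference of 0.45 with an SE of 0.08 and a 95% interval of 0.26 to 0.64 (adjusted p = 0.0152). Without WT replicate 3, Hemgn-/- replicate 2 or Hemgn-/- replicate 3 its adjusted p was 0.0557, 0.0532 and 0.0786, and without a trend 0.0880.

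Il3ra and Csf2rb2, which both belong to the IL-3 receptor, had the largest log2 differences of the 9. Il3ra, the alpha chain (ENSMUSG00000068758, chr14:14346275-14356011, plus strand), was low, at 4.158, 3.398 and 2.846 FPKM in WT and 5.367, 6.065 and 5.878 FPKM in Hemgn-/- libraries. The groups did not overlap, and the mean rose from 3.47 ± 0.659 to 5.77 ± 0.361 FPKM, a log2 difference of 0.61 with an SE of 0.14 and a 95% interval of 0.29 to 0.93 (adjusted p = 0.0382). Behind these values stood 234 to 292 fragments a library in WT and 437 to 504 in Hemgn-/- libraries. Csf2rb2, the beta chain that serves IL-3 alone, was at 10.07, 6.702 and 7.815 FPKM in WT libraries. In Hemgn-/- libraries it was at 10.07, 14.86 and 13.45 FPKM. The first Hemgn-/- value exceeded the first WT value only beyond the digits shown, so the groups met at their edges. The means of 8.19 ± 1.72 and 12.8 ± 2.46 FPKM gave a log2 difference of 0.59 with an SE of 0.17 and a 95% interval of 0.19 to 0.98, past the study's thresholds but not past the adjusted one (limma, adjusted p = 0.0906). The Il3ra call held under 5 of 15 alternatives and the adjusted p ranged from 0.0203 to 0.130. Among the libraries left out in turn it kept an adjusted p under 0.05 only without WT replicate 1 (0.0400) and stood at 0.0787, 0.106, 0.0687, 0.115 and 0.130 without WT replicates 2 and 3 and Hemgn-/- replicates 1, 2 and 3. Basophils, eosinophils and mast cells use these chains: their 6 markers, none at 0 throughout, summed to 425 to 513 FPKM in WT and 268 to 276 FPKM in Hemgn-/- libraries. The lower sum came from the eosinophil granule genes Epx and Prg2, the 2 of 6 that passed the test. The basophil or mast cell markers Ms4a2, Fcer1a and Cpa3, named after their values were seen, had log2 differences above 0 that did not pass it, at 0.45 (adjusted p = 0.170), 0.33 (adjusted p = 0.0917) and 0.27 (adjusted p = 0.120). Mcpt8, the remaining marker of the 6 and named likewise, went the other way, at -0.10 (limma, adjusted p = 0.639). The median over the 6 was 0.08, and the part of these cells was not tested.

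Because the beta chains share sequence, their fragments were also added. Csf2rb and Csf2rb2 together held 491, 404 and 436 FPM (as FPKM, without the scaling to length) in WT libraries and 574, 628 and 640 FPM in Hemgn-/- libraries. The groups did not overlap, and the sum went from 444 ± 44.0 to 614 ± 35.5 FPM, 1.38-fold (two-sided exact permutation p = 0.1, the smallest that 3 against 3 allows). Csf2rb2 made up 9.46%, 7.65% and 8.27% of the sum in WT and 8.1%, 10.9% and 9.69% in Hemgn-/- libraries, with overlap. The summed value does not depend on how fragments were split between the pair, but would miss any that were left out for matching both.

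The IL-6 receptor chains overlapped between genotypes. Il6ra, the binding chain (ENSMUSG00000027947, chr3:89864059-89913196, minus strand), was at 10.44, 12.91 and 9.665 FPKM in WT and 12.97, 10.9 and 12.11 FPKM in Hemgn-/- libraries. Il6st, the signalling chain gp130 (ENSMUSG00000021756, chr13:112464070-112510086, plus strand), was at 3.266, 3.774 and 2.48 FPKM in WT and 3.861, 3.067 and 3.642 FPKM in Hemgn-/- libraries. In both genes WT replicate 3 was the lowest of all 6 libraries and WT replicate 2 the highest of its group. The log2 difference was 0.12 for Il6ra, with a 95% interval of -0.17 to 0.41 (adjusted p = 0.621), and 0.12 for Il6st, with a 95% interval of -0.23 to 0.48 (adjusted p = 0.692).

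Of the receptors best known from lymphocytes, Il4ra rose and Il7r did not pass the test. Il7r, the IL-7 receptor alpha chain (ENSMUSG00000003882, chr15:9505788-9530176, minus strand), was at 25.67, 27.23 and 20.87 FPKM in WT and 19.14, 17.79 and 17.78 FPKM in Hemgn-/- libraries. All 3 Hemgn-/- values lay below all 3 WT values, with WT replicate 3 the nearest. The means of 24.6 ± 3.31 and 18.2 ± 0.783 FPKM gave a log2 difference of -0.40 with an SE of 0.11 and a 95% interval of -0.66 to -0.15, which missed the threshold (limma, adjusted p = 0.0706). The adjusted p was under 0.05 without WT replicate 3 (0.0343), after median-ratio scaling (0.0365) and quantile normalization (0.0474), and with voom (0.0475). Il4ra, the IL-4 receptor alpha chain (ENSMUSG00000030748, chr7:125552120-125579474, plus strand), was at 33.92, 35.04 and 31.77 FPKM in WT and 42.44, 45.24 and 45.47 FPKM in Hemgn-/- libraries. Its groups did not overlap, and the mean rose from 33.6 ± 1.66 to 44.4 ± 1.69 FPKM, a log2 difference of 0.39 with an SE of 0.08 and a 95% interval of 0.22 to 0.57 (adjusted p = 0.0210). That adjusted p became 0.0672, 0.0718, 0.0701 and 0.0972 without WT replicates 1 and 3 and Hemgn-/- replicates 2 and 3, and 0.0664 after median-ratio scaling, 0.0917 without a trend and 0.0531 with the replicate number as a block. The B cell markers, none at 0 throughout, were higher in 4 of 8, Ms4a1, Cd79b and Cd22 among them, and summed to 1190 to 1250 FPKM in WT and 1420 to 1590 FPKM in Hemgn-/- libraries, and the T or NK cell markers in 2 of 9 (Cd3d and Gzma), at 118 to 129 and 133 to 167 FPKM. Vpreb1, a marker of B cell precursors that was picked after its values were seen because those cells carry Il7r, was at 4.86, 3.83 and 3.11 FPKM in WT and 1.44, 3.26 and 3.98 FPKM in Hemgn-/- libraries, with overlap. The part of these cells in the Il7r and Il4ra values was not tested.

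**Figure D2:**
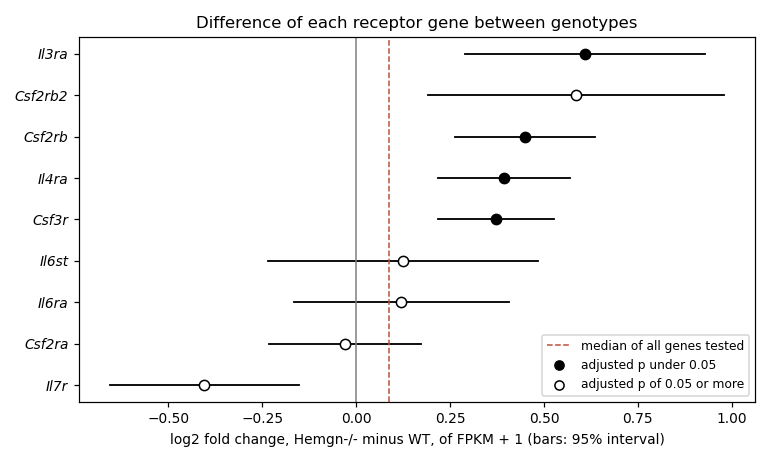
Log2 difference of FPKM + 1 (Hemgn-/- minus WT, horizontal axis) of each receptor gene with its 95% interval (bars). Filled points passed an adjusted p of 0.05, open points did not, and the dashed line is the median of all genes tested (0.09); the intervals of Il6st, Il6ra and Csf2ra span 0, and that of Il7r, from -0.66 to -0.15, lies below it.

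In FPKM, a level per length, the receptors spanned from 266 (Csf2ra) to 3.17 (Il6st) in WT libraries. The WT order ran Csf2ra 266, Csf3r 181, Csf2rb 85.2, Il4ra 33.6, Il7r 24.6, Il6ra 11.0, Csf2rb2 8.19, Il3ra 3.47 and Il6st 3.17 FPKM. The replicate ranges of Il6ra and Csf2rb2 overlapped, as did those of Il3ra and Il6st, and the other neighbours were apart. In Hemgn-/- libraries Csf2rb2 (12.8) and Il6ra (12.0) overlapped and changed places, and Il3ra (5.77) and Il6st (3.52) were apart. The myeloid chains Csf2ra, Csf3r and Csf2rb were thus the most abundant of the 9 in both groups. For 4 receptors the deposited values answer to a length shorter than all exons of GENCODE M21: with the M21 lengths, the mean levels of Csf2ra would be 171 and 167 FPKM in WT and Hemgn-/- libraries and fall below Csf3r, those of Csf2rb 55.8 and 76.3, those of Csf2rb2 7.97 and 12.5, and those of Il7r 16.9 and 12.5 FPKM. The FPKM ratio between genotypes within a gene does not depend on that length. The log2 differences of FPKM + 1 depend on it slightly, through the added 1. Csf2rb2, at a log2 difference of 0.58547, was only just past the 1.5-fold threshold. Whether it would pass with the M21 length was not tested. Fragments a library ran from 15957 to 25109 for Csf3r and from 763 to 1176 for Il6st, whose 3 WT values varied by more, relative to their mean, than those of Csf3r.

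The balance of chains within a receptor was compared as the ratio of their FPKM in each library, which does not depend on the scaling between libraries. In 5 of the 8 chain pairs compared the groups did not overlap, each with a two-sided exact permutation p of 0.1, the smallest the design allows (0.16 adjusted over the 8 pairs), so none could pass 0.05. Each of the 5 holds Csf2rb, Il3ra, Il7r or Il4ra, whose groups did not overlap on their own, so they are not separate observations. The share over gene pairs at large was not counted. Among single genes the groups did not overlap in 19.2% (higher) and 8.18% (lower). Csf2ra over Csf2rb was 3.01, 2.95 and 3.41 in WT and 2.45, 2.12 and 2.13 in Hemgn-/- libraries, a log2 difference of -0.48. Every Hemgn-/- library thus held less alpha chain per common beta chain than every WT library. Il7r over Il2rg went from 0.702, 0.759 and 0.479 to 0.478, 0.406 and 0.437, a log2 difference of -0.53, with WT replicate 3 at the edge of the Hemgn-/- values. Il4ra over Il2rg went from 0.928, 0.977 and 0.729 to 1.06, 1.03 and 1.12, a log2 difference of 0.30. Set against the other partner of Il4ra, the direction was the opposite: Il4ra over Il13ra1 went from 3.3, 4.69 and 3.6 to 2.77, 3.0 and 2.97, a log2 difference of -0.39. For IL-3, Il3ra over Csf2rb went from 0.0446, 0.0434 and 0.0339 to 0.0485, 0.0516 and 0.0484, a log2 difference of 0.30. The remaining pairs overlapped, with mean ratios of 0.424 and 0.456 for Il3ra over Csf2rb2 (exact permutation p = 0.6), 0.0951 and 0.108 for Csf2rb2 over Csf2rb (exact permutation p = 0.3) and 3.49 and 3.41 for Il6ra over Il6st (exact permutation p = 0.8). The ratio between 2 genes also carries the length question above, which scales all 6 libraries alike.

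**Figure D3:**
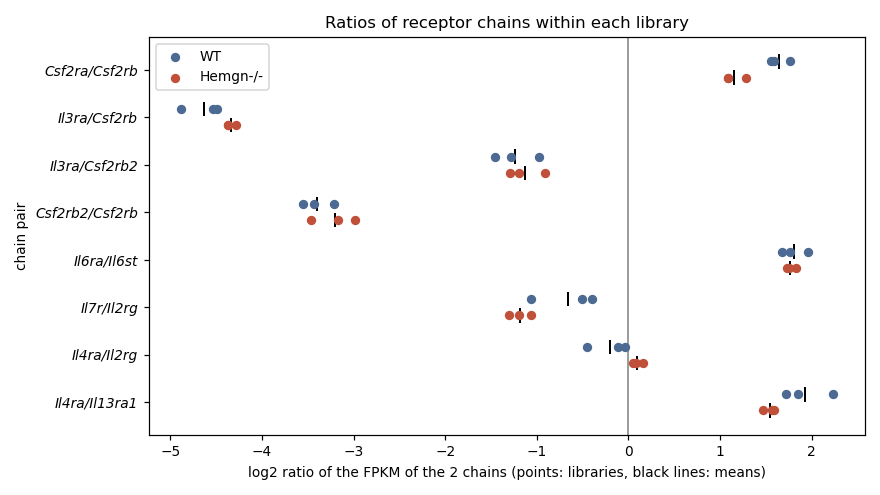
Log2 ratio of the FPKM of 2 receptor chains (horizontal axis) in each library, for 8 chain pairs: WT in blue, Hemgn-/- in red, group means as black lines. The Hemgn-/- points lie to the left of the WT points for Csf2ra/Csf2rb, Il7r/Il2rg and Il4ra/Il13ra1 and to the right for Il3ra/Csf2rb and Il4ra/Il2rg, and the other 3 pairs overlap.

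The ligands of these receptors were mostly near or below the filter. Of 14 ligand genes, 4 passed it, and 1 of these, Osm (oncostatin M, an IL-6 family cytokine), rose, from 536, 571 and 496 FPKM in WT to 726, 712 and 704 FPKM in Hemgn-/- libraries (log2 difference 0.42, adjusted p = 0.00730). Il6 was at 9.34, 8.37 and 12.5 FPKM in WT and 7.58, 7.76 and 8.47 FPKM in Hemgn-/- libraries, a log2 difference of -0.29 (adjusted p = 0.287), with overlap at the edge. Il27 and Clcf1, the other ligands tested, had log2 differences of -0.02 and 0.29 and did not pass the test either. The highest value of any library was 0.433 FPKM for Csf3 (G-CSF), 0.106 for Csf2 (GM-CSF), 0.722 for Il7 and 0.826 for Il4, all under the filter. Il3 was not analysed here.

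Among 10 partner chains, 1 of the 7 tested rose: Il13ra1, the chain that completes the type II IL-4 receptor, went from 10.3, 7.47 and 8.84 FPKM in WT to 15.3, 15.1 and 15.3 FPKM in Hemgn-/- libraries (log2 difference 0.73, adjusted p = 0.00961). Il2rg, the common gamma chain, was at 36.6, 35.9 and 43.6 FPKM in WT and 40.0, 43.8 and 40.7 FPKM in Hemgn-/- libraries, with overlap (log2 difference 0.10, adjusted p = 0.571). Il27ra, which pairs with gp130, had a log2 difference of 0.40 (adjusted p = 0.146). The 12 other hematopoietic receptors had 2 that rose: Il21r, a lymphocyte receptor that also pairs with Il2rg, from 31.7 ± 1.07 to 48.0 ± 1.19 FPKM (log2 difference 0.59, adjusted p = 0.00290), and Csf1r, the macrophage colony-stimulating factor receptor, from 22.8 ± 1.36 to 32.7 ± 2.7 FPKM (log2 difference 0.50, adjusted p = 0.0161). At an unadjusted p under 0.05, where the share of all genes was not counted, 6 of the 12 were higher and 0 lower. Voom called 6 of the 12 higher (734 of 13723 over all genes). The medians were 0.26 over the partner chains tested and 0.40 over the other receptors, beside 0.09 over all genes.

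Downstream, limma called 0 of 13 Janus kinases, STATs and adaptors at the adjusted threshold in either direction, at a median of 0.20. At an unadjusted p under 0.05, where the share of all genes was not counted, 6 of the 13 were higher and 0 lower. Voom and rescaling to the same FPKM total called 4 and 6 of the 13 higher (734 of 13723 and 1062 of 13739 over all genes). The largest difference among them was in Tyk2, a Janus kinase used by gp130 receptors, from 7.75 ± 0.66 to 11.8 ± 2.22 FPKM (log2 difference 0.53, adjusted p = 0.0641). Next came Jak3, which binds Il2rg (0.46, adjusted p = 0.0854), and Stat5a, used by the IL-3, GM-CSF and IL-7 receptors (0.41, adjusted p = 0.0957). Of 13 targets and feedback genes tested, limma called 5 higher and 0 lower, and 2 higher without the eBayes trend. At an unadjusted p under 0.05, where the share of all genes was not counted, 9 were higher and 2 lower. Voom called 5 higher and 0 lower (734 and 331 of 13723 over all genes). Pim1, a kinase gene switched on by STATs, went from 47.4 ± 4.3 to 161 ± 3.0 FPKM (log2 difference 1.74, adjusted p = 1.2867e-05), and Socs3, which blocks signalling from gp130 and Csf3r, from 68.5 ± 5.22 to 123 ± 4.59 FPKM (0.83, adjusted p = 0.000663). Pim2 (0.48), Myc (0.48) and Junb (0.29) were the others. Junb stayed past the threshold under 6 of 15 alternatives, while Pim1 and Socs3 did so under all 15. Cebpb, singled out after its values were seen, was at 1.43, 1.48 and 1.39 FPKM in WT and 0.751, 0.584 and 0.966 FPKM in Hemgn-/- libraries, without overlap (log2 difference -0.47, adjusted p = 0.189). Cebpd, singled out likewise, had 38.3 FPKM in WT replicate 2 and at most 4.97 FPKM in the other 5 libraries, and its WT mean rests on that library. Socs3 and Pim1 are known to respond to interferons as well as to these receptors.

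**Figure D4:**
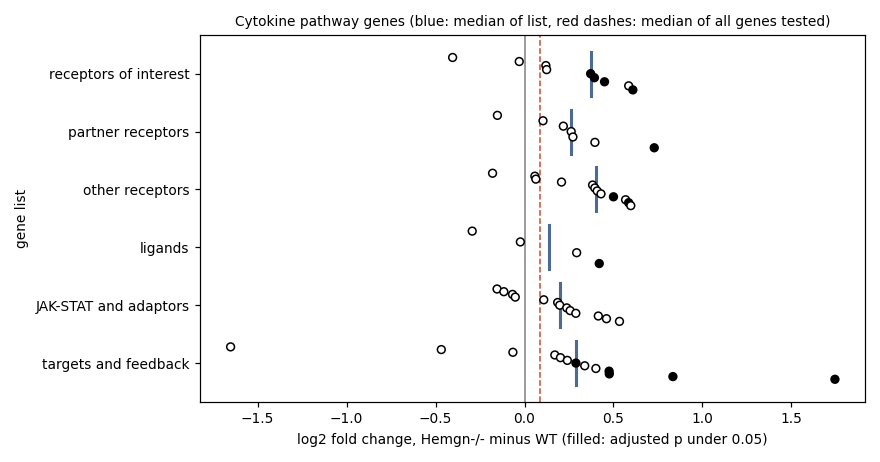
Log2 difference (Hemgn-/- minus WT, horizontal axis) of each gene tested in 6 lists of the cytokine pathway; filled points passed an adjusted p of 0.05, blue bars are list medians and the red dashed line the median of all genes (0.09). The filled points all lie to the right of 0, 4 of them in the receptors of interest, 5 in the targets and feedback genes and 0 in the JAK-STAT genes and adaptors.

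Within the receptors, Csf3r and Csf2rb had the most similar profiles over the 6 libraries, with a root mean square difference of 0.0478 on the log2 scale after each gene was centred on its mean, followed by Il6ra and Il6st (0.058) and Csf3r and Il4ra (0.0676). Csf2rb2 and Il7r were the farthest apart (0.564). Among 13719 other genes, the nearest profiles to Csf3r were those of Ikbkb (0.0225), Sema4a (0.0228) and Map4k1 (0.0312). Those nearest to Csf2rb were Map4k1 (0.0246), Ifngr2, the second chain of the interferon gamma receptor (0.0279), and Mecr (0.0398). Eldr (0.0229), Sytl2 (0.0554) and Tagap (0.0609) were nearest to Il3ra. Eldr averaged 0.85 FPKM in WT and 1.78 FPKM in Hemgn-/- libraries, and Sytl2 0.73 and 1.46 FPKM, near the filter. Neither of them passed the test (limma, adjusted p = 0.105 and 0.162). Ccr7, a chemokine receptor (0.0128), Parp9 (0.0332) and Selplg, the selectin ligand PSGL-1 (0.0336), were nearest to Il4ra. Similarity over 6 libraries of 2 groups is a description, since the points share the genotype difference.

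**Figure D5:**
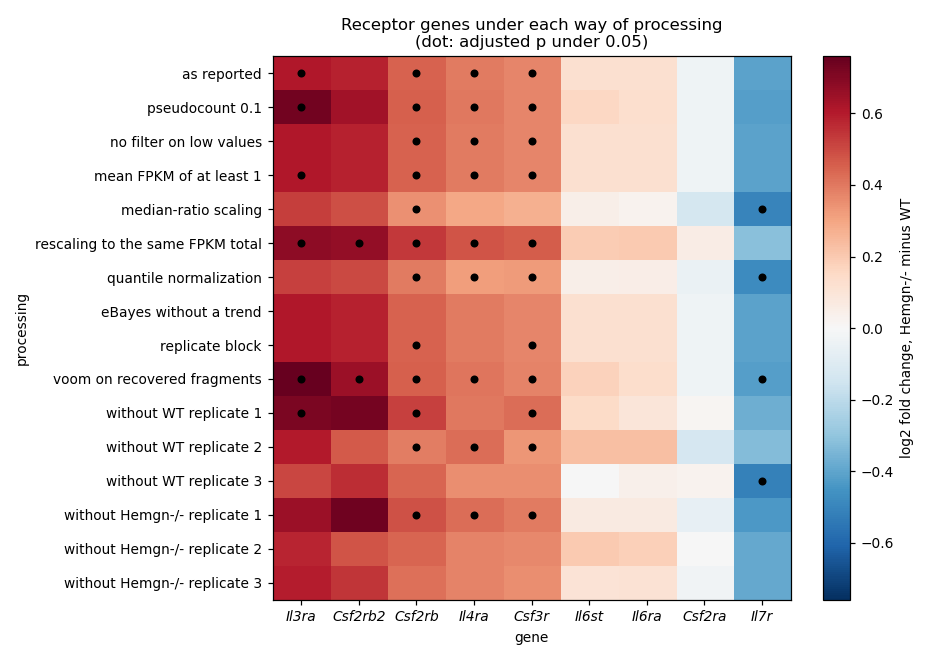
Log2 difference (colour, Hemgn-/- minus WT) of each receptor gene (columns) as reported and under 15 other ways of processing the values (rows); a dot marks an adjusted p under 0.05. Il3ra, Csf2rb2, Csf2rb, Il4ra and Csf3r stay above 0 and Il7r below 0 in every row, while the dots come and go, with 11 of 15 for Csf2rb, 10 for Csf3r, 8 for Il4ra, 5 for Il3ra, 4 for Il7r and 2 for Csf2rb2.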

How the data were processed

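RNA-seq libraries of sorted donor cells were grouped by the genotype in their labels (3 WT, 3 Hemgn-/-). The authors deposited 1 table of FPKM values per gene. The submitters' processing notes name the build GRCm38, Bowtie2 2.2.3, HISAT2 2.1.0, TopHat2 and HTSeq 0.6.0 without their roles, and how FPKM was computed is not given in the sources used here. The labels and the study's methods differ on the sort (with or without c-Kit) and on the library kit (TruSeq or Smart-Seq2). Strand is not stated to have been used in counting, so antisense overlaps could add to Il3ra, Il6ra and Il4ra. The overlapping genes averaged at most 1.04 FPKM.

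Of the 24965 gene identifiers, 24921 matched GENCODE M21 and gave symbols. Depth was recovered from the FPKM steps of single fragments: 95.7% of 13476 low genes came out whole within 0.05 fragments. Where the M21 length gave no whole fragments (Csf2ra, Csf2rb, Csf2rb2 and Il7r), the smallest length that did was used. FPKM gives no counts directly, so recovered fragments served only for depth, the summed beta chains and 1 alternative. The 13739 genes that exceeded 1 FPKM in 1 library or more, the study's filter, entered limma 3.58.1 (R 4.3.3, lmFit and eBayes with trend) on log2(FPKM + 1), two-sided, with Benjamini-Hochberg adjustment over all of them. The study's methods give a 2-tailed Student's test for comparisons of 2 groups in general and name none for the RNA-seq genes. Fold changes on this scale understate changes of low genes. The code was tested on simulated data. Promoter windows and start sites came from RefSeq, transcripts from GENCODE M21. Alternatives changed the pseudocount, filter, scaling, variance model, replicate block, unit (voom on recovered fragments) and left out each library in turn. The receptors and all gene lists were chosen with earlier results of these data known. The text names the receptors, Hemgn, list genes that passed the test or up to 4 a list by size of change, and the 3 nearest profiles to each receptor called, with exceptions marked. Some list genes that this rule names are not reported here.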

Additional observations from a re-analysis of the deposited data

How the results depend on the processing

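The direction of Csf3r, Csf2rb, Csf2rb2, Il3ra, Il6ra, Il7r and Il4ra was the same under all 15 alternatives, and over all receptors and alternatives an adjusted p under 0.05 was lost 26 times and gained 6 times. The log2 difference of Csf2ra changed sign to 0.05865 after rescaling to the same FPKM total and to 0.01283 and 0.02565 without WT replicates 1 and 3 (range -0.1276 to 0.02565 with 1 library left out), and that of Il6st to -0.0007737 without WT replicate 3 (range to 0.2272). The 4 receptors called higher became 1 after median-ratio scaling, 0 without the eBayes trend and 2 with the replicate block. The 0 called lower became 1 (Il7r) after median-ratio scaling, quantile normalization or voom. The 2 at the study's thresholds became 0 after median-ratio scaling or quantile normalization. The 5 higher without overlap became 4 after median-ratio scaling. Leaving out 1 library gave 0 to 3 called higher, 0 to 1 called lower, 0 to 2 higher at the study's thresholds, and 5 to 6 and 1 to 2 not overlapping. Without WT replicate 3, Hemgn-/- replicate 2 or Hemgn-/- replicate 3, 0 receptors were called higher. Of the chain ratios, Il3ra over Csf2rb2 ranged from -0.00599 to 0.235 and turned negative without WT replicate 3 (-0.00412) or Hemgn-/- replicate 1 (-0.00599), and Il6ra over Il6st ranged from -0.0982 to 0.0445, the latter without WT replicate 3. The cause of these changes was not tested.

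Replicate numbers gave no sign of pairing: the deviations of same-numbered libraries correlated at -0.04, -0.01 and 0.01, and those of all other combinations lay between -0.03 and 0.04. The replicate block, which kept Csf3r and Csf2rb, is therefore only a fit with fewer degrees of freedom. Over all genes it gave 410 higher and 226 lower against 600 and 287. Without a trend these were 237 and 153, with the filter removed 309 and 157, and between 223 and 451 higher with 1 library left out. With 3 libraries a group, a difference of the size seen in Csf3r can miss the threshold once 1 library is gone. Precision was lowest for Csf2rb2, whose SE was the largest of the receptors (0.17).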

Other observations

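The neighbours of the beta chain genes on chromosome 15 were read to see whether the whole stretch moved; they were chosen after the receptor values were seen. Within 100 kb of the pair, 5 genes were tested, the beta chains included. Ncf4, which encodes a subunit of the phagocyte NADPH oxidase, was at 521, 524 and 551 FPKM in WT and 475, 471 and 464 FPKM in Hemgn-/- libraries (log2 difference -0.18, adjusted p = 0.0922). Tst, a sulfurtransferase gene, was at 29.8, 29.7 and 35.6 FPKM in WT and 23.0, 22.3 and 26.3 FPKM in Hemgn-/- libraries (-0.39, adjusted p = 0.0641). Mpst, its neighbour, was at 3.56, 4.95 and 3.61 FPKM in WT and 3.86, 5.6 and 3.46 FPKM in Hemgn-/- libraries (0.07, adjusted p = 0.870). Of these 5 genes the beta chains alone had higher values in every Hemgn-/- library, Csf2rb2 by a margin beyond the digits shown. Ncf4 and Tst had lower values in every Hemgn-/- library.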
